A study of Homo sapiens with 5 samples.

Results

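The transcripts described here are 9 genes of lipoprotein assembly and secretion in HepG2 cells depleted of the histone demethylase LSD2. They comprise APOE, APOC1 and APOC2, which lie side by side on chromosome 19q13, and 6 genes at other loci, namely APOB, APOA2, APOF, APOH, APOM and MTTP. They were chosen by name, and all 9 were measured, by 16 probe sets whose only gene symbol in the platform's annotation was one of them. The deposited table gave values for 12893 genes in all. HepG2 is a human hepatic carcinoma line that secretes plasma proteins and lipoproteins. All cells were grown in DMEM with 25 mM glucose and 10% serum, received siRNA with a lipid reagent at about 50% confluence, and were harvested 3 to 4 days later. In the control group the siRNA was directed against GL3, a firefly luciferase sequence, and was measured on 2 arrays, of which the labels call the second a technical replicate. The LSD2 group held 3 arrays, each with a different siRNA against LSD2 (siRNAs 1, 2 and 3), so each siRNA was seen once and in a single cell line.

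Lipoproteins carry lipid through plasma with apolipoproteins on their surface. In the liver, the transfer protein encoded by MTTP loads lipid onto apolipoprotein B (APOB) as it enters the endoplasmic reticulum, and the particle leaves the cell as very low density lipoprotein. Apolipoprotein E (APOE) is the ligand through which remnants are taken up by receptors of the LDL receptor family, apolipoprotein C-II (APOC2) is the cofactor of lipoprotein lipase, and apolipoprotein C-I (APOC1) restrains lipase and transfer activities. LSD2, encoded by KDM1B, removes methyl groups from lysine 4 of histone H3.

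The sequences just ahead of APOE, APOC2 and APOH are shown because APOE stood above both control arrays, APOC2, of the same gene cluster, had probe sets that disagreed, and APOH, at another locus, had the largest mean difference of the 9. Each is the 250 bases before the start used in a RefSeq promoter table on GRCh38.p14, written 5′ to 3′ on the strand of the gene. Capitals mark matches, on either strand, to GGGCGG, known as the GC box, to TATAAA, the usual TATA box, to the CCAAT box, to AGGTCA, a nuclear receptor site, or to GTTAAT, which is one arm of an HNF1 site. No match overlapped another. The windows are chr19:44905546-44905795 (plus strand) for APOE, chr19:44945801-44946050 (plus strand) for APOC2 and chr17:66229416-66229665 (minus strand) for APOH.
APOE: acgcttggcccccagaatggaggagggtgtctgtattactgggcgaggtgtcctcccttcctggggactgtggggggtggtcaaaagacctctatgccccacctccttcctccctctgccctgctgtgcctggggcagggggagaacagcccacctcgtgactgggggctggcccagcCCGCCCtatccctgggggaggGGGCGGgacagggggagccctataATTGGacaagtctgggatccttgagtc
APOC2: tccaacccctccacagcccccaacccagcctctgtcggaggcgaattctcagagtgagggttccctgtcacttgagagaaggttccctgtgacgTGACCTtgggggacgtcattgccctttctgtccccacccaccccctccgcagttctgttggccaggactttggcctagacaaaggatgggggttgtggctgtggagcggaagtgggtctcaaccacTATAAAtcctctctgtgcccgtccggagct
APOH: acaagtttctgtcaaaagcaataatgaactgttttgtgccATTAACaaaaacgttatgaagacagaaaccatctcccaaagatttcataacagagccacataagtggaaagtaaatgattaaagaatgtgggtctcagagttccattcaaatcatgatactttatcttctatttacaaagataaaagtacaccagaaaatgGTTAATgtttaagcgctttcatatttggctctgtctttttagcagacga

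The APOE window shown held GGGCGG at position -51 and its reverse complement CCGCCC at -72 from the start. It also held ATTGG, the reverse complement of CCAAT, at -27. Further APOE windows of the promoter table, starting at chr19:44905771 and chr19:44906151, are not shown. The former held no match, and the latter held only ATTGG, at -202. The APOC2 window held TATAAA at -30 and TGACCT, the reverse complement of AGGTCA, at -156. The APOH window held GTTAAT at -49 and its reverse complement ATTAAC at -210. Among all 35116 windows of this length in the table, 42.6% held the GGGCGG motif, 10.7% TATAAA, 32.0% CCAAT, 12.1% AGGTCA and 6.23% GTTAAT. GC content was 64.8% for APOE, 59.2% for APOC2 and 33.2% for APOH, against a median of 58.0% over all windows. Windows were matched for 7 of the 9 genes, and those of APOB and APOF were not analysed here. These matches describe letters, and no factor binding was measured.

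The deposited values are log values, read as base 2, and each probe set is centred on its own median over the 5 arrays. A value therefore compares arrays for a single probe set and carries no level, so that neither the abundance of a transcript nor its rank among genes can be read. For the same reason the hepatocyte markers could be compared between arrays but not checked for presence. Differences below are log2 values relative to the mean of the control arrays, with the control counted as 1 sample. KDM1B, the target, stood at -2.60, -1.73 and -1.38 under siRNAs 1, 2 and 3, with a mean of -1.90 ± 0.63 (SD, n = 3 siRNAs). Its probe sets were both below the control arrays but differed in size. In 227021_at the differences were -3.95, -2.94 and -1.82 under siRNAs 1, 2 and 3. In 1553150_at they were -1.25, -0.52 and -0.95, and siRNA 2, at 0.00, lay just below control array 2, at 0.077. The mean difference of KDM1B was -0.90 with 1 probe set per gene and -0.99 in siRNA 3 against its batch's control. The labels name no batch, and the 2 batches used here were inferred from 24 probe sets of spiked bacterial poly-A transcripts. Their median difference from control array 1 was -1.45 on control array 2 and -1.39 on siRNA 3. It was 0.040 and 0.073 on siRNAs 1 and 2. Whether this split reflects array processing or only the amount of spiked RNA was not tested. Control array 1 shared the first with siRNAs 1 and 2, and the second consisted of control array 2 and siRNA 3. In limma, 0 of the 12893 genes (0%) passed an adjusted p of 0.05, and 218 (1.69%) had an unadjusted p under 0.05. None of the 9 genes was among those 218, and each had an adjusted p = 0.9999. Every difference below is therefore a description of these arrays.

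APOE, APOF and APOH stood above both control arrays on all 3 knockdown arrays, and no gene of the 9 stood below both on all 3. This was 3 of 9 genes higher, where 8.63% of all genes were, and 0 of 9 lower, where 10.1% of all genes were. The count of genes higher could only stay or rise when an array was left out, since those genes stay above the controls. It was 4 without control array 1 (with APOC2 added), 5 without control array 2 (with APOB and MTTP added) and 4 without siRNA 1 (with MTTP added). The same condition then held for 23.6%, 17.6% and 18.4% of all genes. APOE, APOF and APOH were in the count each time by construction, so their presence there is no test of it.

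**Figure D1:**
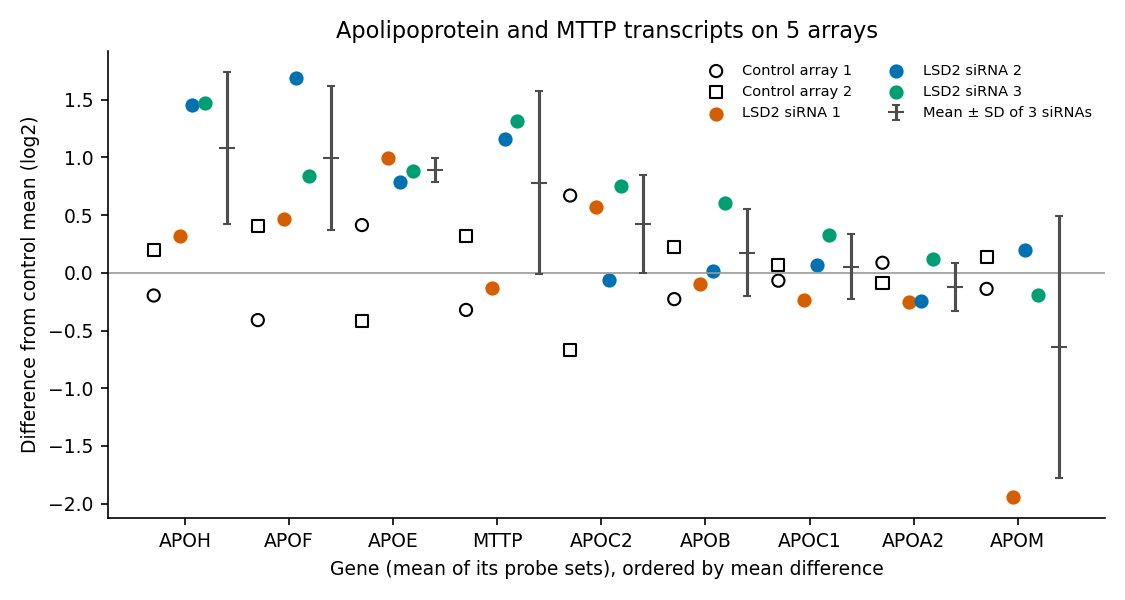
Differences of each of the 9 genes from the control mean (vertical axis, log2) on the 5 arrays, with open symbols for the control arrays, filled circles for the siRNAs and a bar for the mean ± SD of the 3 siRNAs. The 3 siRNAs lie close together for APOE, between 0.79 and 0.99, and far apart for APOM, between -1.94 and 0.19.

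With probe sets averaged and the control mean as reference, APOE was the member on which the siRNAs differed least. Averaged over its 3 probe sets, its deposited values were -0.26 and -1.09 on control arrays 1 and 2 against 0.32, 0.12 and 0.22 for siRNAs 1, 2 and 3. All 3 knockdown arrays were high and the groups did not overlap. The differences were 0.99, 0.79 and 0.89, with a mean of 0.89 ± 0.10 (SD, n = 3 siRNAs) and a limma standard error of 0.38. On a linear scale this is 1.85 times the control, if the logarithm is of base 2. The SD between siRNAs was smaller in only 5.48% of all genes. It was larger in each single probe set of APOE, at 0.13, 0.25 and 0.33. Against the control array of its batch, the siRNAs ran from 0.38 to 1.30. The control arrays, however, were 0.83 apart, with array 2 the lower, and 85.3% of all genes had control arrays closer together. APOE stood at 0.48 without control array 2 and at 1.31 without control array 1.

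The 3 probe sets of APOE gave the same order of groups. They were among 6 of the 16 probe sets that stood above both control arrays on all knockdown arrays, where 8.22% of all probe sets did, and 0 of 16 stood below both, where 9.81% did. The others were those of APOF and APOH and 1 of APOC2. The 3 probe sets of APOE are repeated readings of 1 gene on the same arrays, so this is not a count of separate genes. By gene it was 3 of 9, where 8.63% of all genes were. For 203381_s_at the values were -0.42 and -1.30 on control arrays 1 and 2 against 0.25, 0.00 and 0.19 for siRNAs 1, 2 and 3. For 203382_s_at they were -0.12 and -0.96 on control arrays 1 and 2 against 0.069, 0.00 and 0.46 for siRNAs 1, 2 and 3. For 212884_x_at they were -0.23 and -0.99 on control arrays 1 and 2 against 0.65, 0.36 and 0.00 for siRNAs 1, 2 and 3. Which siRNA read lowest differed between the probe sets. The lowest knockdown array is at 0.00 in each of them by construction, since with both control arrays lowest it is the median on which the probe set is centred. The suffix x_at of 212884_x_at marks, on this array design, probes that can match other sequences. Control array 2 was below control array 1 by 0.88, 0.85 and 0.76 in the 3 probe sets.

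APOC1, the next gene along the chromosome, did not share these values. Averaged over its probe sets, it read -0.071 and 0.065 on control arrays 1 and 2 against -0.24, 0.062 and 0.32 for siRNAs 1, 2 and 3. The knockdown arrays lay on both sides of the controls, and the mean difference was 0.053 ± 0.28 (SD, n = 3 siRNAs). Both probe sets of APOC1 carry the x_at suffix, and the pseudogene copy APOC1P1 lies beside APOC1. They disagreed under siRNA 3, which stood at 0.73 in 204416_x_at and at -0.072 in 213553_x_at. Values for APOC1 are therefore uncertain.

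APOC2 was measured by a pair of probe sets that disagreed. In 231561_s_at the values were -0.011 and -1.79 on control arrays 1 and 2 against 0.25, 0.20 and 0.00 for siRNAs 1, 2 and 3. Here the knockdown arrays stood just above control array 1, and control array 2 alone was low. In 231562_at the values were 0.47 and -0.44 on control arrays 1 and 2 against 0.00, -1.21 and 0.63 for siRNAs 1, 2 and 3, so that siRNA 2 was lowest and siRNA 3 highest. The mean of both gave a difference of 0.42 ± 0.43 (SD, n = 3 siRNAs). The control arrays were 1.34 apart for APOC2, with array 2 the lower, which was wider than in 93.6% of all genes. Leaving out control array 1 gave a difference of 1.09, and leaving out control array 2 gave -0.25. A further pair of probe sets carries APOC2 together with other symbols and was not used.

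**Figure D2:**
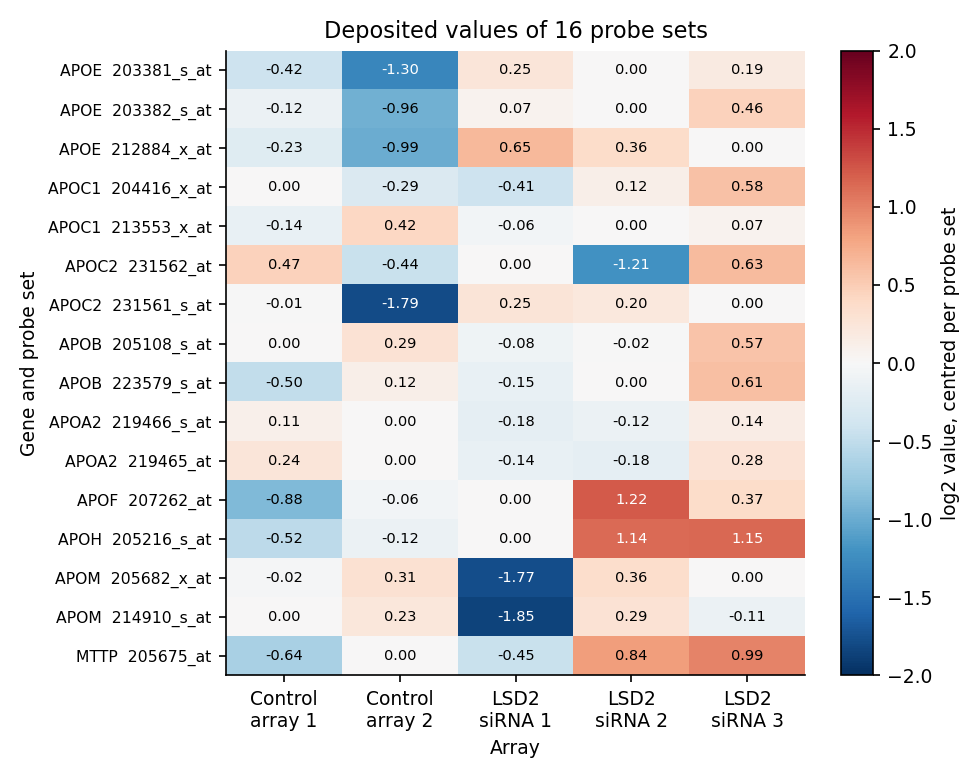
Deposited log2 values, centred per probe set, of the 16 probe sets (rows) on the 5 arrays (columns), with red above and blue below the median of the row. The 3 rows of APOE are negative on both control arrays, and the APOM rows stand apart under siRNA 1 at -1.77 and -1.85.

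Of 16 protein-coding genes listed around the cluster, 12 were measured. The knockdown arrays stood above both control arrays for 0 of the 12, where 8.63% of all genes did, and below both for 0, where 10.1% did. At those shares few of 12 genes would be counted, and other measured genes of the region were not in the list. Their median difference was 0.026, with 0.24, 0.18 and -0.077 under siRNAs 1, 2 and 3. TOMM40, the mitochondrial import pore gene directly ahead of APOE, was at 0.31, 0.10 and -0.47 for siRNAs 1, 2 and 3, and its control arrays lay 1.10 apart. NECTIN2, a cell adhesion gene, was at 0.27, 0.36 and 0.028, and BCAM, which encodes a laminin receptor, at 0.29, -0.22 and 0.17. On the far side, CLPTM1 was at 0.15, -0.86 and 0.37, and RELB, an NF-kappa-B subunit gene, at 0.72, 0.49 and -0.29. Of the remaining 7 measured genes, mean differences ran from -0.21 for GEMIN7 to 0.41 for PPP1R37, whose control arrays were 2.54 apart. CLASRP, MARK4, BLOC1S3, ERCC1 and ERCC2 lay between. APOC4, between APOC1 and APOC2, was not analysed here.

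**Figure D3:**
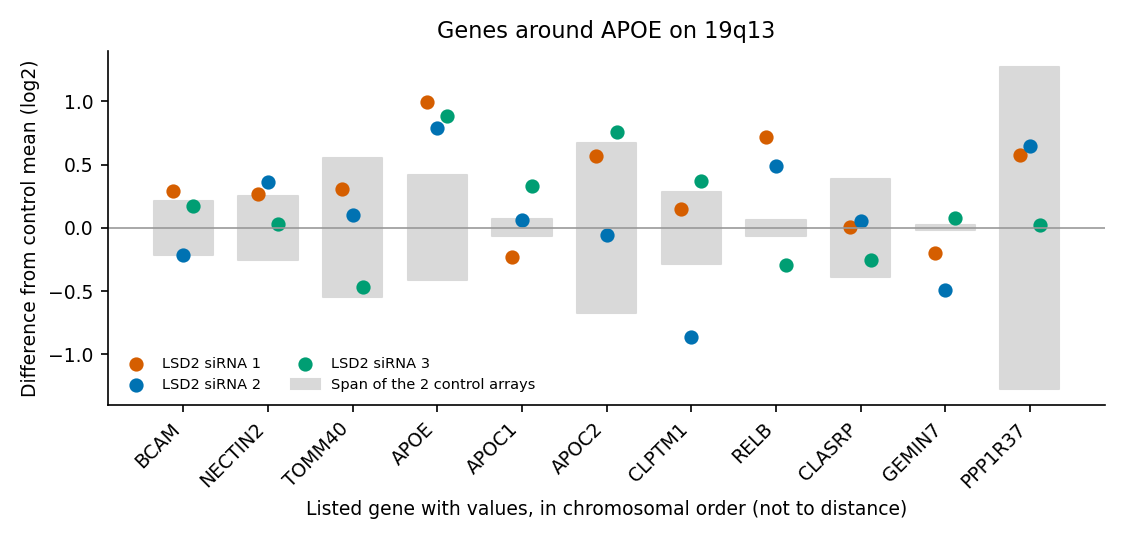
Differences from the control mean (vertical axis, log2) under the 3 siRNAs for listed genes in their order along 19q13, with grey bars for the span of the 2 control arrays. APOE is the gene whose 3 points all lie above the grey bar.

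The genes of apolipoprotein B loading gave unlike values. APOB itself, the structural protein of very low density lipoprotein, read -0.25 and 0.21 on control arrays 1 and 2 against -0.11, -0.0078 and 0.59 for siRNAs 1, 2 and 3. Only siRNA 3 was above both control arrays, and the mean difference was 0.18 ± 0.38 (SD, n = 3 siRNAs). Its probe sets 205108_s_at and 223579_s_at agreed on this, with siRNA 3 at 0.42 and 0.80 and the other siRNAs between -0.23 and 0.19.

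MTTP, the lipid transfer protein gene, was higher under 2 of the siRNAs. Its single probe set read -0.64 and 0.00 on control arrays 1 and 2 against -0.45, 0.84 and 0.99 for siRNAs 1, 2 and 3. The array of siRNA 1 lay between the control arrays and the others lay above both. The mean difference was 0.78 ± 0.79 (SD, n = 3 siRNAs), and it was 1.24 without siRNA 1, 0.52 without siRNA 3 and 0.46 without control array 1.

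APOH and APOF, each with 1 probe set, had the largest mean differences of the 9. APOH encodes a plasma glycoprotein that binds negatively charged phospholipids. It read -0.52 and -0.12 on control arrays 1 and 2 against 0.00, 1.14 and 1.15 for siRNAs 1, 2 and 3. All knockdown arrays were above both controls, but siRNA 1 by little, and the mean difference was 1.08 ± 0.66 (SD, n = 3 siRNAs; limma standard error 0.61). APOF encodes an inhibitor of cholesteryl ester transfer. It read -0.88 and -0.057 on control arrays 1 and 2 against 0.00, 1.22 and 0.37 for siRNAs 1, 2 and 3. The array of siRNA 2 was the highest and that of siRNA 1 was next to control array 2. The mean difference of APOF was 0.997 ± 0.63 (SD, n = 3 siRNAs; limma standard error 0.59), and 0.59 without control array 1.

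APOM and APOA2, whose products sit on high density lipoprotein, were not higher. APOM encodes the carrier of sphingosine-1-phosphate. It read -0.0081 and 0.27 on control arrays 1 and 2 against -1.81, 0.32 and -0.057 for siRNAs 1, 2 and 3. The array of siRNA 1 was far below both control arrays, while siRNA 2 lay just above both and siRNA 3 just below both. Both APOM probe sets had siRNA 1 low, with differences of -1.92 in 205682_x_at, which has the x_at suffix too, and -1.96 in 214910_s_at. The mean difference was -0.64 ± 1.14 (SD, n = 3 siRNAs), and without siRNA 1 it was 0.0033.

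APOA2, an abundant protein of high density lipoprotein, stayed within a narrow span. It read 0.18 and 0.00 on control arrays 1 and 2 against -0.16, -0.15 and 0.21 for siRNAs 1, 2 and 3, so that siRNAs 1 and 2 were below both controls and siRNA 3 above both. The mean difference was -0.12 ± 0.21 (SD, n = 3 siRNAs), and its probe sets gave -0.11 and -0.14.

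In order of the mean difference the genes were APOH, APOF, APOE, MTTP, APOC2, APOB, APOC1, APOA2 and APOM. No step between neighbours in this order exceeded the larger of their SDs between siRNAs, the widest being 0.52 between APOA2 and APOM. The order also differed between arrays. Under siRNA 1 APOE (0.99) was above APOH (0.32), and under siRNA 2 APOF (1.69) was above APOH (1.46). Without control array 1 APOE (1.31) and APOC2 (1.09) were above APOH (0.89), and in the first batch alone APOF (1.49) was above APOH (1.08). The median over the 9 was 0.42, against -0.023 over all genes. It was 0.42 over APOE, APOC1 and APOC2 and 0.48 over the 6 genes at other loci. The median over the 9 was 0.26 without siRNA 3. Over the 6 it was 0.21 without control array 1, 0.24 without siRNA 3, 0.77 without siRNA 1 and 0.75 without control array 2. By siRNA, the genes above the control mean numbered 4 of 9 under siRNA 1, where 46.6% of all genes were, 7 of 9 under siRNA 2, where 51.7% were, and 8 of 9 under siRNA 3, where 51.3% were. The medians over the 9 were -0.094, 0.19 and 0.76.

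By list median, the hepatocyte markers were ordered over the siRNAs in the same way. So were the other apolipoproteins and the genes of lipid loading and export, described below. Of 10 hepatocyte markers listed, 9 were measured, and their median difference was -0.40 under siRNA 1, 0.57 under siRNA 2 and 1.32 under siRNA 3. AFP, TF, FGB and AHSG each kept this order, while ALB, TTR, SERPINA1, RBP4 and HP did not. Of the 9 markers 0 stood above both control arrays, where 8.63% of all genes did, and 0 below both, where 10.1% did. Summed over the 9, their centred values were -3.04 and 0.025 on control arrays 1 and 2 against -9.13, 6.65 and 10.2 for siRNAs 1, 2 and 3. Markers of other liver cell types were also listed, although all arrays held RNA of a single cell line, HepG2. Their summed values on the control and then the knockdown arrays ran from -1.92 to -0.18 and from -1.37 to 1.56 for macrophages (3 of 10 measured), and from -1.19 to -0.63 and from -3.65 to 4.58 for stellate cells and fibroblasts (5 of 8). For endothelial cells they ran from -0.48 to 0.035 and from -0.11 to 1.27 (2 of 7), and for cholangiocytes from -0.34 to 0.48 and from -3.98 to 3.98 (6 of 6). The median differences of these lists were 0.053, 0.98, 0.31 and -0.091 in that order. Of the macrophage markers CD14 stood above both controls at a mean of 1.61, while LYZ, at -0.54, and PTPRC, at 0.053, overlapped with the controls; both were named after their values were seen. Above both were also the stellate and fibroblast markers DCN (1.03) and ACTA2 (0.98), while LUM (-1.29), of that list, stood below both. COL1A1, at 3.32, 1.27 and -0.84 under siRNAs 1, 2 and 3, and PDGFRB, at 1.30, -2.54 and -2.27, overlapped with the controls. The medians of that list were 1.30, 0.48 and -0.84 under siRNAs 1, 2 and 3. Over all genes 8.63% stood above both control arrays and 10.1% below both. With no levels in the values, none of these markers could be called present or at 0. The part of such shifts in the apolipoprotein values was not tested. In bulk RNA, fewer cells that express a gene and less of its RNA per cell cannot be told apart.

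When each siRNA was set against the control array from its batch, it gave partly different values. APOE was at 0.58 and 0.38 under siRNAs 1 and 2, relative to control array 1, and at 1.30 under siRNA 3, relative to control array 2. APOC2 turned from near or above the control mean to -0.10 and -0.73 under siRNAs 1 and 2, with 1.43 under siRNA 3. APOH was at 0.52, 1.65 and 1.27, and APOF at 0.88, 2.10 and 0.43. MTTP was positive under all 3 siRNAs by this measure, at 0.19, 1.48 and 0.99, as was APOB, at 0.13, 0.24 and 0.38. In all, 5 of the 9 genes were above their batch's control under all 3 siRNAs, where 15.4% of all genes were, and 0 of 9 were below it, where 18.4% of all genes were. With the batch as a block, limma called 0 of 12893 genes (0%), with 498 at an unadjusted p under 0.05.

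**Figure D4:**
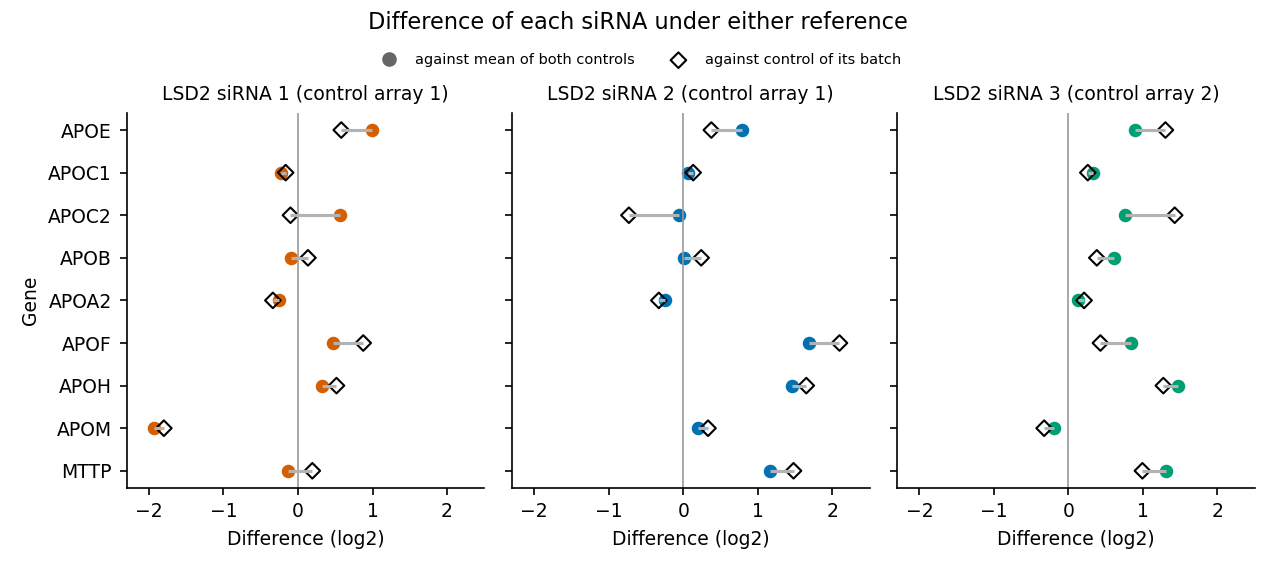
Difference (horizontal axis, log2) of each gene under siRNAs 1, 2 and 3 (panels), with circles against the mean of both control arrays and diamonds against the control array of the same batch. The reference moves APOC2 by 0.67 and APOE and APOF by 0.41 each, and APOM stays at -1.94 and -1.80 under siRNA 1.

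Other genes of the lipoprotein pathway were listed by role, in 5 lists with 71 measured genes. In limma 0 of the 71 were called, and 1, APOL3, had an unadjusted p under 0.05. In all, 11 of the 71 stood above both control arrays on the knockdown arrays and 3 below, where 8.63% and 10.1% of all genes did. Of 18 other apolipoprotein genes 12 were measured, with a median difference of 0.42. Of these, 4 stood above both control arrays on all knockdown arrays and 0 below. APOL3, of the apolipoprotein L family, stood at 2.35, 3.09 and 3.10 under siRNAs 1, 2 and 3. CLU, which encodes clusterin, was at 2.12, 1.34 and 0.67, and APOA5, which promotes clearance of triglyceride-rich particles, at 0.86, 1.02 and 1.66. APOC3, an inhibitor of that clearance, named after its values were seen, was at 0.58, 1.30 and 2.68.

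Among 21 measured genes of 26 for lipid loading and export of apolipoprotein B particles, 2 were above both control arrays and 1 below. Of all genes 8.63% were above and 10.1% below. The median of the 21 was 0.115. PLA2G12B, which takes part in the lipidation of these particles, was at 0.54, 1.05 and 1.88 under siRNAs 1, 2 and 3. VMP1, a membrane protein of the endoplasmic reticulum that acts in lipoprotein release, was at -1.27, -0.66 and -1.24. The other one above was SAR1A, a GTPase gene of COPII transport named after its values were seen, at 0.077, 0.18 and 0.37. CIDEB, which acts in the lipidation of these particles, was at 0.40, 1.27 and 0.91, but its control arrays were 0.85 apart and overlapped with siRNA 1.

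The receptors and plasma enzymes were mixed. The counts in this paragraph stand beside 8.63% of all genes above both control arrays and 10.1% below both. Of 13 receptor and efflux genes 11 were measured, with 3 above both control arrays, 2 below and a median of 0.32. The cholesterol exporter gene ABCA1 was at 0.91, 1.28 and 0.69 under siRNAs 1, 2 and 3, and LRP2, a large receptor of the LDL receptor family, at 0.44, 0.83 and 0.69. LRP8, a receptor for apolipoprotein E, was at -0.55, -0.34 and -0.19. VLDLR, at a mean of 0.41, and SORL1, at a mean of -0.38, were named after their values were seen. Of 11 genes of plasma remodelling 5 were measured, and ANGPTL4, an inhibitor of lipoprotein lipase, was the one above both control arrays, at 1.09, 0.60 and 0.57. Of 29 regulators of apolipoprotein genes 22 were measured, with 1 above both control arrays, 0 below and a median of 0.059. RXRA, the partner of many nuclear receptors, was at 0.57, 0.68 and 0.17. FOXA1, a liver pioneer factor gene, was at 0.15, 0.44 and 0.29 and NR2F1, a repressive nuclear receptor gene, at -0.99, -0.13 and -0.26, both overlapping with the control arrays. HNF4A was not analysed here.

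**Figure D5:**
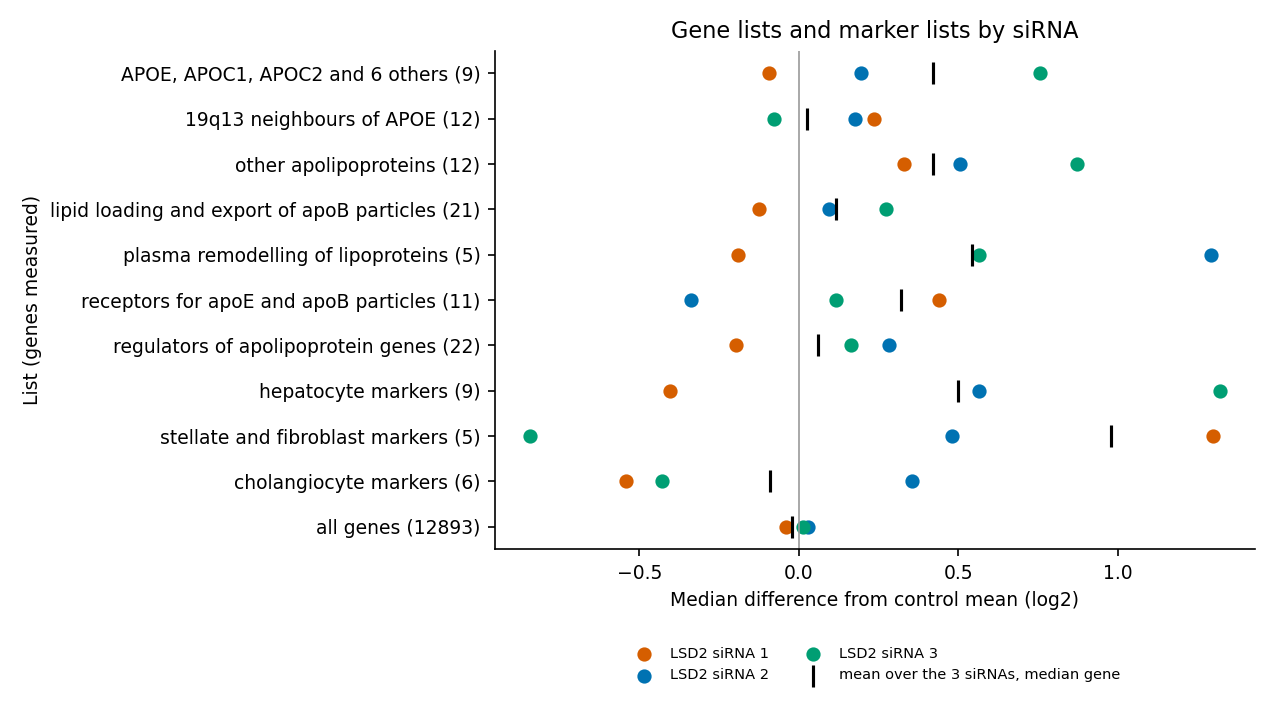
Median difference from the control mean (horizontal axis, log2) over the measured genes of each list with at least 5 of them (rows), under each siRNA (circles) and for the mean over siRNAs (bars). In the rows of the 9 genes, other apolipoproteins, lipid loading and export, and hepatocyte markers siRNA 1 is lowest and siRNA 3 highest. All 12893 genes lie near 0.

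Genes with values most like those of APOE were sought over the 3 siRNA differences and the difference between the control arrays. By the root mean square of the 4 deviations the nearest of 12892 other genes were DUSP13B, TAP1, HPD, HIBADH and GCNA, at 0.098 to 0.15. Of the other 8 members APOC2 was nearest, at rank 564, and APOH ranked 3378. APOC1, the direct neighbour, ranked 4717, with a root mean square of 0.91, and APOM ranked 11919. The remaining members ranked between 5391 (APOB) and 6040 (APOF). Nothing on shared control follows from these ranks, which rest on 5 arrays.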

How the data were processed

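Total RNA of HepG2 cells was hybridised to 5 expression arrays. MAS5 produced the signals, per the submitters' processing notes. The authors deposited log values, read here as log2, with each of the 30137 probe sets centred on its median. The log base, scaling, filtering and genome build are not given in the sources used here, so signal over background is unknown and the number of arrays limits the precision. Probe sets were named by the platform's annotation, where 24151 had 1 symbol, 1175 several and 4753 none, and the probe sets of a gene were averaged. Promoter letters are from RefSeq, GRCh38.p14.

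The main test was limma 3.58.1 (R 4.3.3; lmFit, then eBayes; two-sided, 3 siRNAs against the averaged control, 2 residual degrees of freedom, Benjamini-Hochberg over all genes, threshold 0.05), which assumes that the lone control varies like the knockdowns. Each knockdown array had its own siRNA and so its own transfected cells. The labels do not say whether these were set up on separate occasions. The p-values reflect only how far these samples spread, in which siRNA, transfection and technical differences cannot be told apart. The plan foresaw a filter on dim genes and a pseudocount, which could not be applied without levels. Plots were made with matplotlib 3.10.9 in Python 3.11.15.

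The 9 genes and all lists were chosen with earlier results of these data known. Named genes were the 9 with each probe set, KDM1B, every measured listed neighbour on 19q13, up to 3 genes per other list with the largest weakest difference of 1 sign over the siRNAs, and the 5 genes nearest to APOE. Of the marker lists, medians, sums and the genes clear of the control arrays are given, and further markers were named after their values were seen. Alternatives were leaving out each array, the inferred array batch or the replicate number as a block, each batch alone, separate control arrays, other normalizations, 1 probe set per gene, genes with control arrays under 0.5 apart and a robust variance prior.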

Additional observations from a re-analysis of the deposited data

How the results depend on the processing

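In limma the count of genes past the threshold was 0 under the 14 alternatives fitted as well, with a lowest adjusted p = 0.182 when the control arrays were separate samples. APOE, APOF, APOH and MTTP kept a positive difference under every alternative that could be fitted for them, with ranges of 0.48 to 1.31, 0.43 to 1.49, 0.89 to 1.46 and 0.46 to 1.24, and adjusted p-values of the 9 genes in limma ran from 0.875 to 0.9999. All knockdown arrays were above both controls for APOE, APOF and APOH. Their positive sign was therefore fixed wherever arrays were only left out, regrouped or blocked. Taking 1 probe set per gene could not change it either, since all 3 probe sets of APOE stood above both controls. APOF and APOH have 1 probe set each. Centring on the array median returned the main differences, at 0.89 for APOE, 0.997 for APOF and 1.08 for APOH. Only quantile normalization could have changed the sign. The count of genes above the control arrays was 5 of 9 in the first array batch alone, 8 of 9 in the second and 1 of 5 among genes with control arrays under 0.5 apart, where 25.9%, 53.5% and 9.81% of all genes were. It ran from 3 to 5 when single arrays were left out, which could not lower it. The count below them was 2 in the first batch, where 35.1% of all genes were, 1 in the second, where 46.5% were, and 0 to 1 without single arrays, where 16.2% to 24.5% were.

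The median over APOE, APOC1 and APOC2 was -0.016 in the first batch, 1.30 in the second and 0.053 among genes with control arrays under 0.5 apart, where only APOC1 remained, and it ran from 0.12 to 1.09 without single arrays. APOC1 turned to -0.016 in the first batch, to -0.084 without siRNA 3 and to -0.015 without control array 1, and ran from -0.084 to 0.20 when single arrays were left out. APOC2 turned to -0.21 with 1 probe set per gene, to -0.42 in the first batch and to -0.25 without control array 2, with a range of -0.25 to 1.09 over single arrays left out. APOB turned to -0.040 without siRNA 3 and to -0.052 without control array 1, with a range of -0.052 to 0.40, APOA2 to 0.21 in the second batch and APOM to 0.0033 without siRNA 1, with a range of -1.06 to 0.0033. The median over all 9 genes was 0.19 in the first batch and 0.053 over the 5 with control arrays under 0.5 apart, and that over the genes at other loci was 0.027 with this filter. The cause was not tested.

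The replicate numbers of the titles do not pair the samples, since the second control array is a technical replicate. The deviations from the group means correlated at 0.10 and -0.05 over genes for numbers 1 and 2. With the replicate number as a block, 0 genes passed in limma and 707 had an unadjusted p under 0.05, while APOC1 stood at -0.084 and APOB at -0.040.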
